A study of Homo sapiens with 21 samples.

Results

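In HMLE cells, 28 genes were silent before treatment and expressed after 20 days of TGFβ. They were chosen from 23201 gene symbols by their values at both ends of the time course: a normalised read count of at most 3 in each of the 3 untreated libraries, and a mean of at least 30 over the 3 libraries of day 20. Of 7882 genes that met the first condition, 32 (0.406%) met the second. COL5A1, CDH11, POSTN and GREM1 were then left out, as were any other symbols starting with COL, CDH, MMP, ADAMTS or ITG, since these matrix, cadherin, protease and integrin families were chosen out by name. Because the untreated and day 20 values chose the genes, those values are given as a description only, and tests were run only among days 1 to 15.

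HMLE is an immortalized cell line of human mammary epithelium, and all libraries came from this one line. RNA was sequenced without TGFβ (d0) and after 1, 4, 7, 10, 15 and 20 days of TGFβ (d1 to d20), with 3 libraries per timepoint, described as biological triplicates, and 21 in all. No library is labelled as untreated on a later day, so TGFβ and time in culture cannot be told apart in these comparisons. The question addressed by the time course is how transcription changes as the cells undergo epithelial to mesenchymal transition (EMT). Recovered read totals ranged from 18847917 to 22667754 per library, and 1 unit of normalised read count corresponded to between 0.943 and 1.18 reads.

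TGFβ binds paired receptor kinases at the cell surface, which phosphorylate SMAD proteins that enter the nucleus and act with other transcription factors at target genes. In epithelial cells, sustained TGFβ induces factors of the SNAI, ZEB and TWIST families. Cells then lose junctions and keratin architecture and gain extracellular matrix, contractile and migratory gene programs, of which collagens, periostin and mesenchymal cadherins are the usual examples. The genes described here are what remained of the silent-to-expressed genes when those families were set aside.

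The cells carried the markers of their label. All 6 mammary basal epithelial markers examined (KRT5, KRT14, KRT17, TP63, EPCAM and CDH1) were detected at every timepoint, with a summed normalised read count of 350200 ± 12300 (SD, n = 3) on d0 and 256400 ± 1993 on d20, and KRT5 was the most abundant of them at both. From d0 to d20 the mean of EPCAM went from 2106 to 402, CDH1 from 7195 to 2868, TP63 from 4453 to 3367 and KRT5 from 224300 to 109400. KRT14 went up from 72770 to 91700 and KRT17 from 39310 to 48720. In between, the sum was 555400 ± 197400 on d7 (329100 to 691800 in single libraries), 191000 ± 1912 on d10 and 493600 ± 8932 on d15, and the part of this alternation in the values of the 28 genes was not tested. One timepoint was less uniform than the others. Each d7 library differed from its day-mates by 0.359 to 0.464 (root mean square of the log2 differences over genes with a mean of at least 10), where the libraries of the other days differed by 0.215 to 0.240, and the library in the third d7 column stood farthest from its day-mates. By the same measure the third library was nearer to d4 (0.448) and d20 (0.452) than to its day-mates (0.464) and lay 0.614 from d15. Among the other days, the first was nearest to d15 (0.521, and 0.547 from d4), and the second was equally near to d4 and d15 (0.539). The labels name no batch, and the part of these differences in the changes into and out of d7 was not tested. Called changes into and out of d7 are therefore given with and without that library.

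At d0 the 28 genes had between 0 and 8 reads summed over the 3 libraries, and no library held more than 3 reads of any of them. DGKI, MFAP2, PTGIR and ZNF469 had 0 reads in all 3 libraries, and ACAN, HHIP, MYO7B and PPAPDC1A had 1. A count of 0 in a library allows up to 3 reads, counting error only. No fold change against d0 is therefore given. At d20 every library of every one of the 28 genes lay above 10, and the lowest single value was 23.3, in CDK15. The highest d20 means belonged to MYO7B (190 ± 13.5, SD, n = 3), DPT (163 ± 20.6), ACAN (139 ± 12.8), ALPK2 (117 ± 15.1), CADM3 (110 ± 20.9) and DOCK2 (103 ± 3.24). Next came KIAA1644 (72.1 ± 5.02), FOXS1 (64.0 ± 7.68), TNFAIP6 (63.8 ± 6.64), CGB8 (62.9 ± 6.61), AMTN (57.0 ± 8.19) and HHIP (53.1 ± 4.52). ALPK2, CADM3 and DOCK2 followed each other within 1 SD, as did the neighbours from FOXS1 to HHIP, while the steps between MYO7B, DPT, ACAN and ALPK2 and from KIAA1644 to FOXS1 were wider than either SD. The other 16 genes had d20 means between 30.6 and 53.0.

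Per kilobase of exon, which is the scale on which genes can be compared with each other, the order was different. DPT led at 91.1 units of normalised read count per kb on d20, followed by CGB8 at 71.4, AMTN at 55.0, FOXS1 at 48.5 and TNFAIP6 at 40.4, all of them short transcripts. The long transcript of DGKI had the lowest value, at 2.75 units per kb. All 28 are annotated by RefSeq as protein coding. KIAA1644 is now named SHISAL1 and PPAPDC1A is now PLPP4.

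The choice of 30 on d20 and 3 on d0 decided membership for a few genes. FIBCD1, with a d20 mean of 30.6, and LIMS2, with 30.9, lay just inside, while HAS2 (29.4), which makes hyaluronan, and LOC152225 (29.4) lay just outside. On the d0 side DOCK2 and CGB8 reached 2.97 in their highest untreated library and were kept. INSC reached 3.39 in its highest and was not, with a d20 mean of 79.3.

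The genes did not start together. Taking as onset the first treated day on which all 3 libraries were above 10, 15 of the 28 genes had their onset on d1, 6 on d4, 2 on d7, 2 on d10, 1 on d15 and 2 on d20. Among all 7882 genes that were silent on d0, 29 (0.368%) had all 3 libraries above 10 on d1, 39 (0.495%) on d4, 36 (0.457%) on d7, 39 (0.495%) on d10, 59 (0.749%) on d15 and 60 (0.761%) on d20. The d20 rule guarantees that nearly all of the 28 pass by d20, so these shares are set beside the counts only to show how rare such expression was among silent genes. The d1 genes included ACAN, ALPK2, AMTN, CDK15, CGB8, DOCK2, FOXS1, GPR143, HS3ST2, HSD11B1, KIAA1644, MFAP2, MYO7B and PTPRR. Those of d4 were DGKI, DPT, FIBCD1, LIMS2, PPAPDC1A and PTGIR. HEYL and ZNF469 followed on d7, MAP1B and TNFAIP6 on d10, CADM3 on d15, and HHIP and TIE1 on d20.

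**Figure D1:**
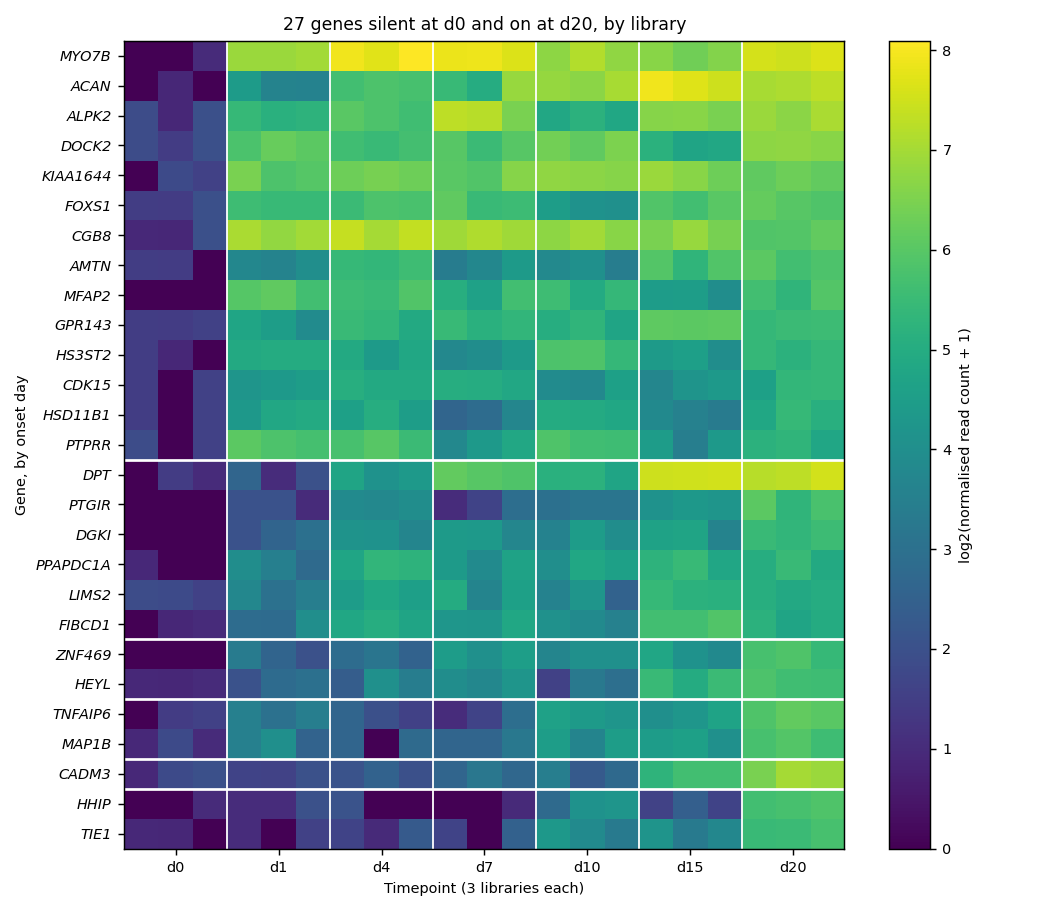
Normalised read counts of 27 of the 28 genes (rows, grouped by onset day from d1 at the top to d20 at the bottom, white lines between groups) in the 21 libraries (columns, 3 per timepoint), coloured by log2(normalised read count + 1). The d0 columns are dark in every row, the 14 rows of the d1 group are above 10 in every d1 library, and several rows darken again on d7, d10 or d15.

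The onset counts moved with the cut-off. When every library had to exceed 3, 22 of the 28 genes started on d1, 3 on d4, 1 on d7 and 2 on d10, so that all had left the untreated range by d10. When every library had to exceed 30, 8 started on d1, 3 on d4, 2 on d7, 1 on d10, 4 on d15 and 7 on d20, and 3 never passed. Expression was not always kept after onset. For 7 genes, among them AMTN, HEYL, HSD11B1, LIMS2, PTGIR and PTPRR, at least 1 library of a later day was at 10 or below. The number of genes with all 3 libraries above 10 was 15 on d1, 21 on d4, 19 on d7, 21 on d10, 23 on d15 and 28 on d20.

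**Figure D2:**
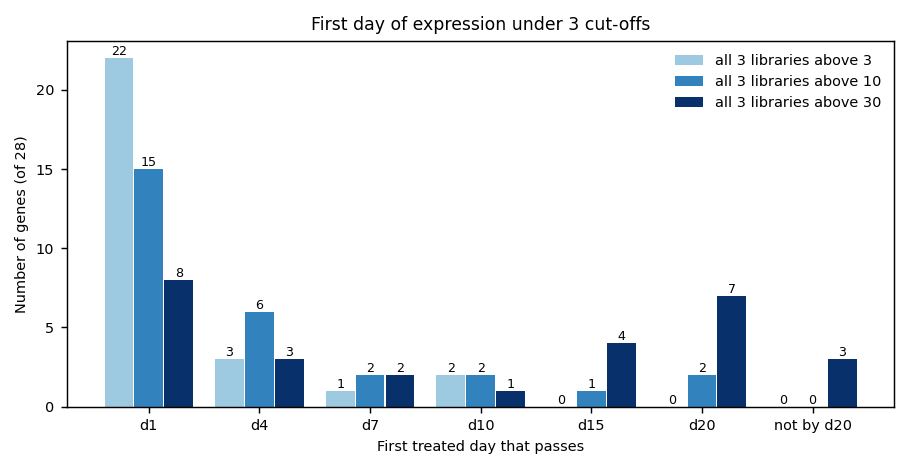
Number of the 28 genes (vertical axis) by the first treated day on which all 3 libraries exceeded a normalised read count of 3, 10 or 30 (light to dark bars). With a cut-off of 3, 22 genes start on d1, and with a cut-off of 30 it is 8, while 7 pass 30 first on d20 and 3 do not pass it in every library of any day.

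The day of the highest mean was d20 for 15 genes, d15 for 6 (ACAN, DPT, FIBCD1, GPR143, LIMS2 and PPAPDC1A), d10 for HS3ST2 and KIAA1644, d7 for ALPK2, d4 for CGB8 and MYO7B and d1 for MFAP2 and PTPRR. All 3 libraries of d20 lay above all 3 of d15 in 18 genes and below them in 6 (ACAN, CGB8, FIBCD1, GPR143, KIAA1644 and LIMS2). The genes with the highest earlier mean relative to their d20 mean were CGB8 (2.43 times), PTPRR (1.72 times) and FIBCD1 (1.70 times).

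The 15 libraries of d1 to d15, whose values the rule did not use, were compared by limma on log2(normalised read count + 1), a scale on which changes of low values are understated. Genes with a mean of at least 10 over these libraries were tested, 13331 in all, and a change was called at a Benjamini-Hochberg adjusted p below 0.05 and at least 1 on the log2 scale. Of the 28 genes 25 passed that minimum, and HHIP, PTGIR and TIE1 did not. 4 of the 25 passed only through their highest day: CADM3, HEYL and MAP1B through d15, and TNFAIP6 through d10, with means over the other 12 libraries of 4.75, 9.03, 9.66 and 8.80. For these genes, and for the 3 below the minimum, the adjusted p given is that of a limma fit with no minimum, over 19228 genes, and counts over the 25 are a description and not a test of the group. Adjacent comparisons share the libraries of the day between them, so an increase followed by a decrease is not 2 independent results.

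Between d1 and d15, 12 of the 25 genes rose and 5 fell, where 9.58% of all tested genes rose and 8.52% fell. Their median log2 change was 1.01, against 0.00 over all genes tested. Because the rule required a high d20, another 15 silent genes that reached a mean of 30 earlier and were below it on d20 were not chosen, so these counts and this median are partly set by the choice of genes and nothing is read from them. The genes that rose were DPT, ACAN, CADM3, HEYL, FIBCD1, AMTN, LIMS2, DGKI, PPAPDC1A, GPR143, ZNF469 and ALPK2. PTPRR, MFAP2, DOCK2 and HSD11B1 were among those that fell, although each of them had been near 0 before treatment. From day to day, 8 rose and 2 fell from d1 to d4 (all genes: 4.28% up and 1.96% down), 3 rose and 4 fell from d4 to d7 (2.19% and 1.51%), 7 rose and 3 fell from d7 to d10 (3.58% and 9.09%), and 9 rose and 5 fell from d10 to d15 (12.1% and 10.2%). Without the library in the third d7 column the counts from d4 to d7 were again 3 and 4, and from d7 to d10 they were 7 and 4. In all, 21 genes passed both thresholds in at least 1 of these steps, 10 of them upward in one and downward in another, and CDK15, CGB8, KIAA1644 and MFAP2 passed both thresholds in none. These counts come from the fit with the minimum, and they include the rise of MAP1B from d7 to d10 (limma adjusted p = 0.047). With no minimum that rise was not called (limma adjusted p = 0.062). MFAP2 from d10 to d15 (-0.9955, limma adjusted p = 0.00198) and CDK15 from d7 to d10 (-0.87, 0.0036) passed on p and missed the limit of 1.

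Among the matrix and secreted proteins, DPT encodes dermatopontin, a small protein of connective tissue matrix that binds decorin and collagen fibrils. Its normalised read counts in the 3 libraries were 5.23, 1.03 and 2.98 on d1, 25.2, 16.6 and 19.6 on d4, 69.7, 62.6 and 57.7 on d7, 33.8, 36.0 and 25.4 on d10, and 178, 181 and 184 on d15. No library of one day overlapped with those of the next. By limma the log2 change was 2.52 ± 0.30 (SE) from d1 to d4 (adjusted p = 3.27e-06), 1.60 ± 0.30 from d4 to d7 (0.000466; 1.66 without the third d7 library) and 2.49 ± 0.30 from d10 to d15 (1.35e-06), and from d1 to d15 it came to 5.62 ± 0.30 (1.42e-10), the largest rise among the 25. The lower d10 level narrowly missed the limit of 1 and was not called. At d20 the libraries were at 147, 155 and 186, around the d15 level. DPT is known from fibroblasts. Of 8 fibroblast markers DCN and LUM had at most 1 read in any library and PDGFRA at most 8, while COL1A1, COL1A2, FAP and THY1 were higher on d20 than on d0. The 8 markers together went from 1895 ± 23.9 on d0 to 6557 on d1 (6437 to 6789 in single libraries), 8209 ± 138 on d4, 11630 ± 383 on d7, 9162 ± 214 on d10, 14430 ± 526 on d15 and 35930 ± 1171 on d20, led by COL1A1 (28230 on d20), and their part in the DPT values was not tested.

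ACAN encodes aggrecan, the large chondroitin sulfate proteoglycan of cartilage. The 3 libraries read 20.9, 11.3 and 10.9 on d1, 49.4, 55.5 and 51.9 on d4, 112, 103 and 129 on d10 and 239, 207 and 176 on d15, with no overlap between these days. ACAN rose from d1 to d4 (log2 change 1.85 ± 0.34, SE, limma adjusted p = 0.000223) and over the whole interval from d1 to d15 (3.81 ± 0.34, adjusted p = 5.4e-08). At d7 the libraries split into 43.3, 31.3 and 114, and the third column held the high one. The called rise from d7 to d10 (1.07 ± 0.34, limma adjusted p = 0.0109) was 1.61 without the third d7 library. It was not called without the first (0.92) or the second (0.69) d7 library or the third d10 library (0.986), by edgeR (0.84) or DESeq2 (0.86) on the recovered reads, or in a fit of d7 and d10 alone (1.07). At d20 ACAN was lower than on d15 in every library, at 129, 135 and 154.

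MFAP2, a component of elastic microfibrils, had its highest values on d1, with 61.7, 67.7 and 48.6, and stood at 21.4, 21.7 and 14.5 on d15. It fell over this interval by 1.59 ± 0.25 on the log2 scale (SE, limma adjusted p = 3.22e-05) and its d20 libraries were back at 48.8, 37.9 and 59.7. TNFAIP6, which encodes the hyaluronan-binding protein TSG-6, was low on d4 (5.26, 2.92 and 1.96) and d7 (1.06, 2.09 and 6.52) after 10.5, 7.18 and 9.92 on d1. It rose to 23.9, 20.4 and 17.6 on d10, a log2 change of 2.56 ± 0.42 (limma adjusted p = 7.41e-05 with no minimum), or 3.09 without the third d7 library, and it stayed in that range on d15 before reaching 57.2, 70.5 and 63.7 on d20. The earlier fall from d1 to d4 (-1.27 ± 0.42, limma adjusted p = 0.0213 with no minimum) was also called with the minimum in place (0.0159). Single d1 and d4 libraries were left out of that second fit only. There the call was lost without the first d1 library (-1.18) or the third d4 library (-1.02).

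AMTN encodes amelotin, an enamel matrix protein of the tooth. Its values alternated: 12.6, 11.3 and 14.9 on d1, 42.1, 39.9 and 47.0 on d4, 9.50, 12.5 and 20.48 on d7, 12.9, 15.6 and 9.78 on d10 and 60.2, 38.0 and 59.1 on d15. The d4 and d15 libraries lay above all of the other 3 days but overlapped with each other. AMTN rose from d1 to d4 (1.67 ± 0.27, SE, limma adjusted p = 6.33e-05), fell from d4 to d7 (-1.60 ± 0.27, 0.000182, and -1.88 without the third d7 library) and rose again from d10 to d15 (1.95 ± 0.27, 6e-06). FIBCD1, a membrane receptor that binds acetylated sugars such as chitin, had its peak on d15 with 49.0, 48.8 and 58.0, after 15.9, 13.6 and 10.8 on d10, a log2 change of 1.89 ± 0.29 (limma adjusted p = 1.77e-05). All 3 of its d20 libraries were lower, between 25.3 and 36.0.

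Among adhesion and cytoskeletal genes onset ranged from d1 to d15. MYO7B, an unconventional myosin known from the brush border of intestinal and kidney epithelium, was the most highly counted of the 28 on d20 and went from 0, 0 and 0.99 on d0 to 117, 117 and 124 on d1. Its libraries reached 241, 210 and 272 on d4 and 232, 236 and 204 on d7, then stood at 104, 142 and 108 on d10 and 99.0, 79.6 and 96.3 on d15, with no overlap between d4 or d7 and the later pair of days. The rise from d1 to d4 was at the limit for a call (1.00 ± 0.13, SE, limma adjusted p = 6.97e-06) and it was 0.91 to 0.998, below it, without the first or the second d1 library or the first or the third d4 library. That rise was also below the limit after quantile normalization (0.93), with equal library totals (0.997) and with a pseudocount of 10 (0.95). The lower level on d10 missed the limit of 1. LIMS2, which encodes the focal adhesion adaptor PINCH2, lies next to MYO7B on chromosome 2 with no coding gene between them, but its values were 10.95, 17.5 and 4.89 on d10 and 41.8, 36.2 and 34.2 on d15, a rise of 1.81 ± 0.38 (limma adjusted p = 0.000437), at a step where MYO7B was not called. LIMS2 also rose from d1 to d4 (1.20 ± 0.38, 0.0126), which was not called without the second d1 library (1.01).

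CADM3, an immunoglobulin-like adhesion molecule known from neurons, had its onset on d15. The libraries held 2.09, 2.05 and 2.98 on d1, 3.16, 4.87 and 2.94 on d4, 5.28, 8.34 and 5.58 on d7 and 9.95, 3.89 and 5.87 on d10, and then 37.7, 48.8 and 48.7 on d15. All d15 libraries were above every earlier one, and the log2 change from d10 was 2.68 ± 0.33 (SE, limma adjusted p = 2.31e-06 with no minimum). At d20 the values were 86.9, 127 and 117. MAP1B, a microtubule-associated protein best known from growing axons, read 10.46, 15.38 and 4.96 on d1. Its onset on d10 thus rests on the third d1 library, without which MAP1B passed on d1 and 1 gene had its onset on d10. It was low on d4 (5.26, 0 and 5.88) and d7 (5.28, 5.21 and 8.38), and reached 21.9, 11.7 and 21.5 on d10. The change from d7 to d10 was 1.39 ± 0.59 (limma adjusted p = 0.062 with no minimum, not called; 1.58 and 0.0341 without the third d7 library). It passed with the minimum in place (0.047), and there it was lost without the first (1.29) or the second (1.28) d7 library or the first (1.24) or the third (1.25) d10 library. The fall from d1 to d4 (-1.57 ± 0.59, limma adjusted p = 0.041 with no minimum) was also called with the minimum in place (0.03). In the fit with the minimum it rested on a d4 library with 0 reads, without which it was -0.66, not called. In that fit it was -1.495 without the first d1 library and -1.24 without the second, neither of them called. Of 6 neural markers, SNAP25 had at most 2 reads in any library. The list summed to 722 ± 34.9 on d0, 1621 ± 57.5 on d1, 1842 ± 11.5 on d10, 1110 ± 35.9 on d15 and 1410 ± 16.9 on d20. Most of it was TUBB3 (610 on d0 and 1299 on d20). NES had its highest mean on d20, with 3.02 on d0, 33.7 on d10, 3.88 on d15 and 37.4 on d20, and MAP2 was at 92.0 on d0, 21.3 on d10, 104 on d15 and 58.5 on d20. The part of these markers in the values of CADM3 and MAP1B was not tested.

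Receptors and their regulators came on at different times. TIE1, an orphan receptor tyrosine kinase of the angiopoietin system, and HHIP, which binds and sequesters hedgehog ligands, were the last to start. This holds for the rule of all 3 libraries above 10 and rests on single libraries. Without the first or the third d10 library, or the second d15 library, only 1 gene had its onset on d20. HHIP had 0, 0 and 0.93 on d7, 5.97, 16.5 and 17.6 on d10, 2.04, 4.52 and 2.07 on d15 and 48.8, 52.6 and 57.8 on d20, so that the d10 values stood above both neighbours and below d20. TIE1 went from 2.11, 0 and 4.65 on d7 to 18.9, 13.6 and 8.80 on d10, 17.3, 9.04 and 12.4 on d15 and 43.5, 45.3 and 52.9 on d20. With no minimum, limma gave a log2 change from d7 to d10 of 3.40 ± 0.55 for HHIP (SE, adjusted p = 6.74e-05; 3.72 without the third d7 library) and 2.45 ± 0.57 for TIE1 (0.00176; 3.01 without it), and from d10 to d15 of -1.82 ± 0.55 for HHIP (0.00921). TIE1 is known from endothelial cells. Of 5 endothelial markers CDH5 had at most 1 read in any library, and the list summed to 93.2 on d0, 34.7 ± 5.47 on d10, 283 ± 8.11 on d15, when KDR made up 263 of it, and 51.4 ± 16.1 on d20, when TIE1 was highest. TEK, the most abundant of the 5 on d20, had means of 1.43 on d0, 16.03 on d1, 18.02 on d4, 8.19 on d7, 11.5 on d10, 3.32 on d15 and 20.7 on d20, while TIE1 averaged 1.01 on d1 and 2.33 on d4. The others were lower on d20 than on d0, with PECAM1 at 41.3 and 12.2, KDR at 42.1 and 13.5 and VWF at 8.33 and 4.50, apart from CDH5. The part of these markers in the TIE1 values was not tested.

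PTGIR, the prostacyclin receptor, was the third gene below the minimum. It read 3.14, 3.08 and 0.99 on d1 and 13.7, 12.7 and 14.7 on d4. The libraries then held 1.06, 2.09 and 6.52 on d7, 6.97, 7.77 and 7.82 on d10 and 16.3, 18.99 and 17.6 on d15. Adjacent days from d1 to d15 did not overlap, and d20 had 65.7, 37.9 and 53.9. With no minimum, limma gave 2.18 ± 0.41 from d1 to d4 (SE, adjusted p = 0.000353) and -2.01 ± 0.41 from d4 to d7 (0.00122, and -2.54 without the third d7 library). The later changes were 1.23 ± 0.41 from d7 to d10 (0.0191, and 1.75 without that library) and 1.13 ± 0.41 from d10 to d15 (0.0258). GPR143, the G protein-coupled receptor of melanosomes, had its highest libraries on d15, at 67.3, 66.0 and 67.3, against 31.9, 37.9 and 25.4 on d10. The change was 1.07 ± 0.22 (limma adjusted p = 0.00037), which fell to 0.93 without the third d10 library and to 0.66 after quantile normalization, neither of them called. The melanocyte marker TYR had 0 reads in every library and SOX10 at most 1. The 4 markers together summed to 60.6 ± 5.56 on d0, 35.0 ± 11.7 on d10, 79.5 ± 10.3 on d15 and 47.1 ± 3.55 on d20, mainly PMEL. GPR143 averaged 1.82 on d0 and 44.2 on d20. MLANA had means between 8.69 and 12.3 at every timepoint. The part of these markers in the GPR143 values was not tested.

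**Figure D3:**
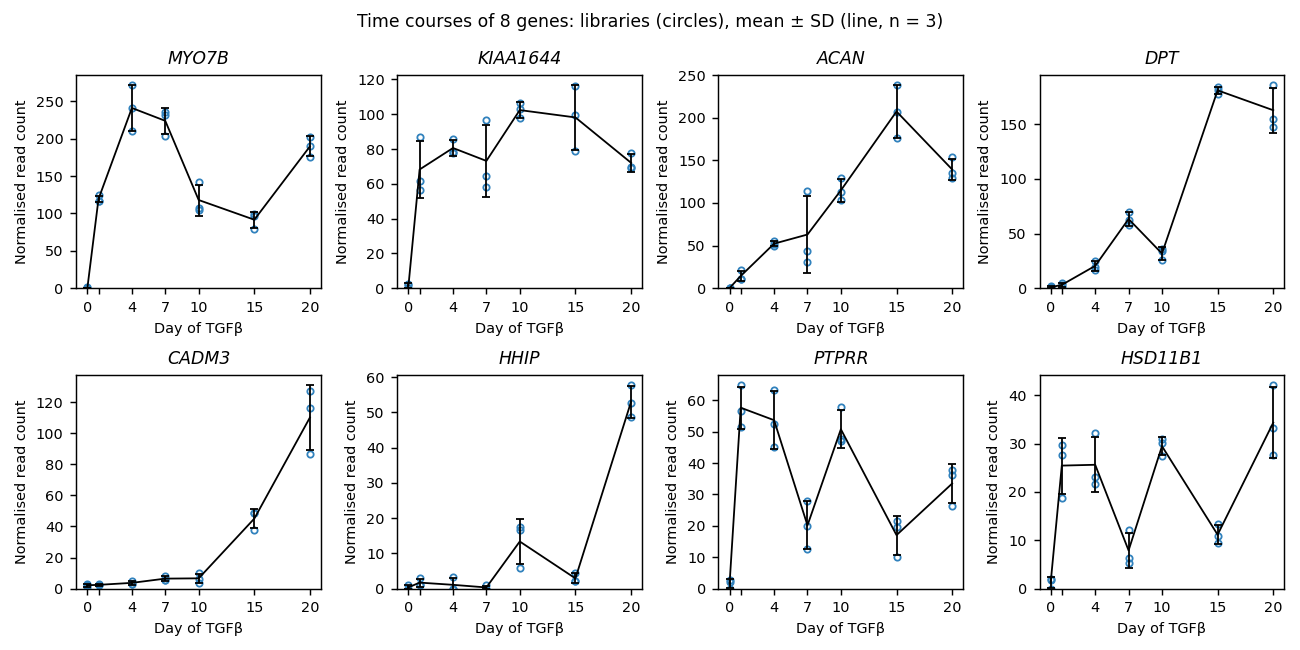
Normalised read count (vertical axis, each panel on its own scale from 0) against day of TGFβ for 8 of the genes; circles are libraries and the line joins means ± SD (n = 3). KIAA1644 is above 50 from d1 onwards, DPT and ACAN reach their highest means on d15, CADM3 and HHIP on d20, and PTPRR and HSD11B1 are lower on d7 and d15 than on d4 and d10.

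Transcription factors included HEYL, FOXS1 and the zinc finger gene ZNF469. HEYL, a basic helix-loop-helix repressor that is a direct target of Notch signalling, read 14.8, 12.5 and 17.7 on d7, 1.99, 8.75 and 6.84 on d10 and 43.9, 30.8 and 44.5 on d15. These days did not overlap, and the rise from d10 to d15 was 2.72 ± 0.46 (SE, limma adjusted p = 7.84e-05 with no minimum). The preceding fall from d7 to d10 (-1.37 ± 0.46, limma adjusted p = 0.0204 with no minimum, and -1.26 without the third d7 library) was also called with the minimum in place (0.0142). In the fit with the minimum it was not called without the first d10 library (-0.86) or after quantile normalization (-0.72). FOXS1, a forkhead factor, was on from d1 at 47.1, 43.1 and 42.7, dropped to 21.9, 16.5 and 15.7 on d10 and was back at 58.2, 48.8 and 64.2 on d15. It fell by 1.48 ± 0.19 from d7 to d10 (limma adjusted p = 4.3e-06), with a change of -1.57 without the third d7 library, and rose by 1.62 ± 0.19 from d10 to d15 (9.63e-07). ZNF469, a zinc finger protein linked to corneal collagen structure, had its onset on d7 with 21.1, 15.6 and 22.3 after 6.31, 7.79 and 4.90 on d4, a rise of 1.5005 ± 0.35 (0.0023), or 1.41 without the third d7 library. That rise was not called with a pseudocount of 10 (0.86).

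Signalling enzymes moved in both directions between the same days. ALPK2, an alpha-type protein kinase, had 64.2, 56.5 and 48.0 on d4, 154, 148 and 86.6 on d7, 27.9, 36.0 and 27.4 on d10 and 96.9, 99.5 and 87.0 on d15, and of these days d7 and d15 alone overlapped. The log2 change was 1.15 ± 0.20 (SE) from d4 to d7 (limma adjusted p = 0.00021), -2.02 ± 0.20 from d7 to d10 (2.57e-07) and 1.61 ± 0.20 from d10 to d15 (1.58e-06), and without the third d7 library the changes from d4 to d7 and from d7 to d10 were 1.42 and -2.29. PTPRR, a tyrosine phosphatase that acts on MAP kinases of the ERK type, went the other way: 52.6, 63.3 and 45.0 on d4, 12.7, 19.8 and 27.9 on d7, 57.7, 47.6 and 46.9 on d10 and 21.4, 9.95 and 19.7 on d15. Its d7 and d15 libraries lay below all of those on d4 and d10, with changes of -1.42 ± 0.28 (limma adjusted p = 0.000694), 1.35 ± 0.28 (0.000484) and -1.58 ± 0.28 (8.45e-05) over the 3 steps. Without the third d7 library the changes into and out of d7 were -1.68 and 1.61.

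DOCK2, a Rac activator known from leukocyte migration, had 81.6, 68.0 and 90.0 on d10 and 34.7, 25.3 and 27.97 on d15 and fell by 1.42 ± 0.18 (SE, limma adjusted p = 1.79e-06). All d20 libraries, at 104, 106 and 99.9, lay above those of every earlier day. The leukocyte marker PTPRC had at most 1 read in any library and MS4A1 none. The 5 immune markers together summed to 417 ± 6.03 on d0, 387 ± 29.7 on d10, 770 ± 27.7 on d15 and 656 ± 20.9 on d20, mainly CD68. CDK15, a kinase of the cyclin-dependent family, had means between 16.4 and 30.4 from d1 to d15. Its changes from d1 to d4 (0.60 ± 0.23, SE, limma adjusted p = 0.0344) and from d7 to d10 (-0.87 ± 0.23, 0.0036) passed on p but missed the limit of 1. DGKI, which phosphorylates diacylglycerol, rose from 3.14, 5.13 and 6.95 on d1 to 16.8, 16.6 and 11.8 on d4 (1.44 ± 0.36, limma adjusted p = 0.00246). That rise was not called with a pseudocount of 10 (0.73).

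The metabolic enzymes HS3ST2 and HSD11B1 both had higher values on d10 than on d7 and d15. For HSD11B1 the d10 libraries overlapped with those of d1 and of d4. HS3ST2 adds sulfate to heparan sulfate chains, and HSD11B1 converts cortisone to cortisol. For HS3ST2 the libraries were at 12.7, 14.6 and 20.48 on d7, 55.7, 57.3 and 41.1 on d10 and 20.4, 22.6 and 14.5 on d15, so that every d10 library stood above both neighbouring days. The changes were 1.64 ± 0.23 (SE, limma adjusted p = 9.67e-06) into d10, or 1.83 without the third d7 library, and -1.38 ± 0.23 (3.85e-05) out of it. HSD11B1 had 23.1, 32.1 and 21.5 on d4, 5.28, 6.26 and 12.1 on d7, 30.9, 30.1 and 27.4 on d10 and 13.3, 10.9 and 9.32 on d15. It fell by 1.64 ± 0.28 from d4 to d7 (limma adjusted p = 0.000225), rose by 1.85 ± 0.28 from d7 to d10 (2.6e-05) and fell by 1.34 ± 0.28 from d10 to d15 (0.00043). Without the third d7 library the first and second of these were -1.96 and 2.17. Its fall from d1 to d15 (-1.11 ± 0.28, 0.00216) was not called without the third d1 library (-0.99) or the third d15 library (-0.998). With a pseudocount of 10 neither this fall (-0.74) nor that from d10 to d15 (-0.90) was called.

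PPAPDC1A, a lipid phosphatase, had 14.6, 10.3 and 5.95 on d1 and 26.3, 39.0 and 36.2 on d4, with no overlap, and rose by 1.68 ± 0.32 (SE, limma adjusted p = 0.000268). CGB8 and KIAA1644 were above 50 in every library from the first day onwards and were called in no step. From d1 to d15 CGB8 changed by -0.37 ± 0.14 (SE, limma adjusted p = 0.0243) and KIAA1644 by 0.53 ± 0.19 (0.0216), under the limit of 1. CGB8 encodes a beta subunit of chorionic gonadotropin, the hormone of early pregnancy, and read 133, 109 and 125 on d1, 166, 129 and 164 on d4 and 86.7, 113 and 84.9 on d15. It belongs to a cluster of near-identical genes, so its reads may have been divided among copies. CGB7 had a mean of 30.2 on d0, 250 on d4 and 108 on d20, and CGB5 went from 0 on d0 to 9.22 on d4, which makes the values of CGB8 alone uncertain. KIAA1644 had its lowest single value among treated libraries on d1 (56.4) and its highest on d15 (116), and its means lay between 68.3 and 102 from d1 to d15. Reads could also be shared with overlapping genes on the opposite strand, since whether counting used the strand was not given in the sources used here. GPR17, which overlaps LIMS2 by 196 bases, had a mean of at most 2.41 at any timepoint. Antisense transcripts annotated across ALPK2, CADM3 and HHIP are not listed in the table.

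Of the adjacent steps, that from d10 to d15 had the most called changes among the 25 genes. HEYL, CADM3, DPT, AMTN, FIBCD1, LIMS2, FOXS1, ALPK2 and GPR143 rose, and PTPRR, DOCK2, HS3ST2 and HSD11B1 were among the genes that fell. It was also the adjacent step with the most calls over all genes. The 7 proliferation markers (MKI67, TOP2A, CCNB1, BIRC5, CDK1, PCNA and MCM2), all detected at each timepoint and led by TOP2A, summed to 45750 ± 554 on d10, 17670 ± 239 on d15 and 51380 ± 915 on d20. The basal epithelial sum moved in the opposite direction, as given above. The part of these differences in the values of the 28 genes was not tested. In bulk RNA, fewer cells that express a gene and less RNA per cell cannot be told apart.

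**Figure D4:**
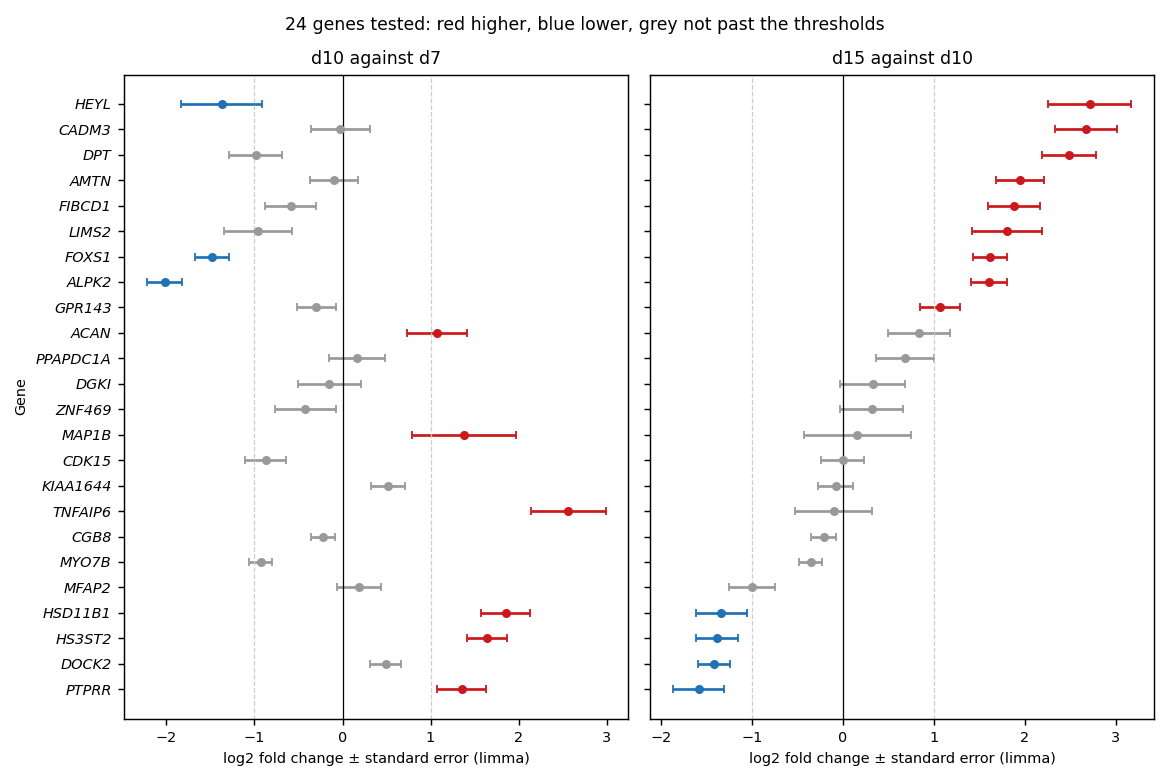
Log2 fold change ± standard error by limma for 24 of the 25 tested genes (rows, ordered by the change from d10 to d15), from d7 to d10 (left) and from d10 to d15 (right); red points are called higher, blue lower and grey neither, and dashed lines mark 1 and -1. Points and calls are those of the fit with the minimum, also for CADM3, HEYL, MAP1B and TNFAIP6, which passed it only through their highest day. MAP1B is red on the left (limma adjusted p = 0.047), but with no minimum that rise was not called (0.062). On the right HEYL lies highest at 2.72 and PTPRR lowest at -1.58, and PTPRR, HSD11B1 and HS3ST2 are called higher on the left and lower on the right.

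The upstream regions of the genes at both ends of this step are shown so that they can be compared directly. They are the 250 bases before the annotated RefSeq start in GRCh38.p14, written 5′ to 3′ on the strand of the gene. Within the 25 tested genes the largest fitted increases were those of HEYL (chr1:39639644-39639893, minus strand) and CADM3 (chr1:159171365-159171614, plus strand). The largest decreases within the 25 were those of PTPRR (chr12:70754609-70754858, minus strand) and DOCK2 (chr5:169637025-169637274, plus strand). HHIP, which is not one of the 25, had a lower change, -1.82 by limma with no minimum. Capitals mark matches to a motif searched for, and HEYL has none.
HEYL: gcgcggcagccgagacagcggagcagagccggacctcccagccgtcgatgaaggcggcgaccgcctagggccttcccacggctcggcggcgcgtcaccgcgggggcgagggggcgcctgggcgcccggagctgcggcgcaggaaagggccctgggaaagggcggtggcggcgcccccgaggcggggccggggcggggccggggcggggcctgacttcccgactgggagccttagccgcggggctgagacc
CADM3: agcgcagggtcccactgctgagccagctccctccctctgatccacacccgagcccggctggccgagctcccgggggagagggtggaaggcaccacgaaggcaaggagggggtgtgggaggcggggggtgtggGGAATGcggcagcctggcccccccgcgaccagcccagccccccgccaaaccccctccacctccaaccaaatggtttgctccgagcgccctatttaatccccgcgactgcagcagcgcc
PTPRR: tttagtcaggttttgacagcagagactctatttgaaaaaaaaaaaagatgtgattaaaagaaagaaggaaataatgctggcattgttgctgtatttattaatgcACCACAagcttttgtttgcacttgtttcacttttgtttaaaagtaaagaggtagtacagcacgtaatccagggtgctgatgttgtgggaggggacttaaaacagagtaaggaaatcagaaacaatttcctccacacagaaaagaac
DOCK2: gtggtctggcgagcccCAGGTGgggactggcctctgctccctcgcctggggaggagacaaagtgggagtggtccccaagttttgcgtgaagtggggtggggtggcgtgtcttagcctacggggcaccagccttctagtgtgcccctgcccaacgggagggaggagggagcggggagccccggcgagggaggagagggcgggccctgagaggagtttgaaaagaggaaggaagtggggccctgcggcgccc

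CADM3 holds GGAATG, the core of TEAD sites, 118 bases before the start, PTPRR holds ACCACA, the core of RUNX sites, 146 bases before it, and DOCK2 holds CAGGTG, the E-box bound by ZEB and SNAI factors, 234 bases before it. Promoter windows of 300 bases (250 before and 50 after the start) were matched for 23 of the 28 genes and compared with 27305 such windows, searching both strands. The E-box CAGGTG or its reverse complement CACCTG was in 4 of the 23 (17.4%; DOCK2, HSD11B1, MFAP2 and MYO7B) and in 20.6% of all windows. The TATA box TATAAA was in 4 (17.4%; CDK15, DPT, LIMS2 and MAP1B) against 11.95%, the AP-1 site TGANTCA in 2 (8.70%; MFAP2 and TNFAIP6) against 7.76%, the RUNX core TGTGGT in 2 (8.70%; CGB8 and PTPRR) against 13.1% and the TEAD core GGAATG in 1 (4.35%; CADM3) against 14.05%. The SMAD palindrome GTCTAGAC was in none, against 0.201%. No motif of this set contains another, and a match describes the sequence only.

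The wider TGFβ and EMT programs were followed through lists that leave out the 28 genes. Of 20 tested TGFβ target genes, 2 rose from d1 to d15 and 0 fell (limma, adjusted p under the threshold and at least 1 on the log2 scale): JUNB, a subunit of AP-1, by 1.53 and ID3, an inhibitor of basic helix-loop-helix factors, by 1.23. The list's median change was 0.05, against 0.00 over all genes, of which 9.58% rose and 8.52% fell in this comparison, so the share of the list that rose was near that of all genes. Of 13 EMT transcription factors, 4 rose, namely ZEB1 (2.24), FOXC2 (1.95), ZEB2 (1.88) and TWIST1 (1.16), SOX9 fell (-3.00) and the median was 0.61. Of 25 other mesenchymal matrix genes, 12 rose, led by FBLN5 (4.41) and VCAN (4.40), which encode an elastic fibre protein and the proteoglycan versican, 1 fell (SRPX2, -1.86) and the median was 0.79. ACAN and MFAP2, both on this last list, went in opposite directions over the same interval.

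By family, TIE1 was among 24 receptor kinases listed, FOXS1 among 204 homeobox, T-box, SOX and forkhead factors, GPR143 among 181 G protein-coupled receptors (a list by symbol prefix that lacks PTGIR, also of this family) and ZNF469 among 537 zinc finger genes. None of the 28 genes was among 37 axon guidance and synapse genes, 21 BMP and WNT antagonists, 41 growth factors and cytokines, 166 ion channels, 378 solute carriers, 35 serpins, 70 protocadherins or 2964 non-coding RNAs, lists that may likewise be incomplete. The BMP antagonist GREM1 had met both limits, with a mean of 0 on d0 and 780 on d20, and was one of the genes left out by name.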

How the data were processed

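The RNA-seq table covers 7 timepoints and 21 libraries of HMLE cells. Its values are a normalised signal that the authors deposited for each gene and library, rounded to 2 decimals. The submitters' processing notes name STAR 2.7, Salmon 1.4 and the genome build hg19, without role or order, and the counting tool, annotation and strand setting were not given in the sources used here. Dividing by a single factor per library turned the values back into reads: 100% of those of up to 2000 reads came out whole within 0.02 units. The recovered reads totalled 18847917 to 22667754 per library. The table's columns name a timepoint and no replicate, 0 columns were left unused, and no column of the authors' own comparisons was present. The 3 libraries are described as biological triplicates of one cell line, so p-values measure the spread between these cultures.

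Log2(value + 1) was compared by limma 3.58.1 (lmFit, contrasts.fit and eBayes with trend, R 4.3.3) over the 15 libraries of d1 to d15, which the choice of genes did not use. Genes with a mean of at least 10 were kept, p-values were adjusted by Benjamini-Hochberg over 13331 genes per comparison, and a change was called at an adjusted p below 0.05 and an absolute log2 change of at least 1. Levels are means ± SD (n = 3). The code was tested on simulated data. Alternatives were edgeR 4.0.16 and DESeq2 1.42.0 on the recovered reads, pseudocounts, filters, other scalings, other sets of libraries in the fit, no minimum fold and each library left out in turn. On the recovered reads, edgeR called 574 genes higher and 285 lower from d1 to d4, and 1696 and 1294 from d10 to d15. The genes and lists were chosen with earlier results of these data known. Genes named are the 12 with the highest d20 mean, the 3 highest of each onset day, the 3 largest rises and falls of each comparison, the 3 with the highest earlier mean relative to d20, members of any list and the nearest to each threshold, and other genes complete a count and were named after their values were seen. Exon lengths and overlaps came from GENCODE v29, and names and promoters from RefSeq GRCh38.p14, used by symbol and not for coordinates of the table. Promoters of FOXS1, KIAA1644, PTGIR and ZNF469 were not used here. One of the 28 genes is counted throughout but its own values are not reported here. Intervals and floors cover counting error only. Plots used matplotlib 3.10.9 under Python 3.11.15.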

Additional observations from a re-analysis of the deposited data

How the results depend on the processing

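No paired analysis was possible because no column of the table bears a replicate number. Of 58 called changes of single genes, 40 were called under every alternative run and 18 lost the call under at least 1, and none of 810 values reversed. A pseudocount of 10 cost 18 calls, quantile normalization 4, equal library totals 2, and edgeR, DESeq2, no filter on low values and a fit of only the compared days 1 each, and in the last of these 2 more genes fell below the filter and were not tested. With a pseudocount of 10 the calls from d1 to d4 were 5 up and 0 down, those up from d7 to d10 were 4, those down from d10 to d15 were 3 and those down from d1 to d15 were 2. The rises of DGKI and ZNF469 and the fall of DOCK2 from d1 to d15 were among the calls lost with that pseudocount. With only the compared days in the fit, 0 fell from d1 to d4, since MAP1B and TNFAIP6 were not tested there. A fit with no filter and without the third d7 library, chosen after seeing the data, called the changes of HEYL, MAP1B and TNFAIP6 from d7 to d10. With no minimum fold change, 7 fell from d7 to d10 and 8 from d1 to d15, the TGFβ targets gave 8 up and 4 down, the EMT factors 8 up and 2 down and the matrix genes 3 down. The causes were not tested, except that dropping the minimum fold can only add calls.

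Onset above 30 gave 8 genes on d1, 3 on d4, 1 on d10, 4 on d15 and 7 on d20. Onset above 3 gave 3 on d4, 1 on d7, 0 on d15 and 0 on d20. As the first day with a mean of at least 0.5 times the d20 mean, onset gave 1 on d7, 1 on d10, 2 on d15 and 8 on d20. With equal library totals 1 gene had its highest mean on d10.

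Leaving out each library in turn, onset counts ranged from 15 to 17 on d1, 5 to 6 on d4, 2 to 2 on d7, 1 to 3 on d10, 1 to 2 on d15 and 1 to 2 on d20. Genes with the highest mean ranged from 1 to 2 on d1, 2 to 3 on d4, 1 to 1 on d7, 1 to 2 on d10, 5 to 7 on d15 and 14 to 16 on d20. Calls ranged from 6 to 8 up and 0 to 2 down from d1 to d4 (0 without the first d1 library, 1 without the second d1 or the second or the third d4 library), 3 to 3 and 4 to 4 from d4 to d7, 5 to 7 and 3 to 6 from d7 to d10 (6 without the second d10 library), 8 to 9 and 4 to 6 from d10 to d15, and 12 to 13 and 3 to 5 from d1 to d15 (3 without the third d15 library). The TGFβ targets gave 2 to 3 up and 0 to 0 down, the EMT factors 4 to 4 and 1 to 1, and the matrix genes 12 to 12 and 1 to 2 (2 without the second d15 library).

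Values near 10 rest on about 10 reads, so onset at that limit is imprecise.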

Other observations

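A further 15 genes were silent on d0 by the same limit, reached a mean normalised read count of at least 30 on an earlier treated day and were below 30 on d20. They were chosen after their values were seen, and no test was run on them. Their highest mean was on d1 for 1 gene, d4 for 1, d7 for 5, d10 for 3 and d15 for 5. AXIN2, a negative regulator that is itself a target of WNT signalling, was at 138, 140 and 122 in the d15 libraries and at a mean of 14.03 ± 3.04 (SD, n = 3) on d20. HSD17B2, which inactivates oestradiol and testosterone, had 71.5, 66.2 and 63.7 on d4 and a mean of 12.4 ± 4.07 on d20. TMEM59L had 41.8, 45.2 and 62.2 on d15 and 3.82 ± 1.70 on d20, and the potassium channel subunit gene KCNE1 had 39.8, 23.5 and 38.3 on d15 and 3.45 ± 1.66 on d20. HAS2, just outside the d20 limit, was at 42.8, 32.1 and 36.2 on d10 and at a mean of 2.92 ± 0.81 on d15.

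The genes with their highest mean on d7 were IFNK, DKFZp434J0226, SNCAIP, KCNS2 and MYL7. In each of them the library in the third d7 column was the lowest of its day. IFNK, which encodes the keratinocyte interferon kappa, had 70.7, 67.8 and 24.2 on d7, and KCNS2 had 39.1, 51.1 and 9.31.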
